A study of Mus musculus with 24 samples.

Results

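The genes described here are the TNF and TNF receptor superfamily members of an nCounter immune panel, measured in treated mouse mammary tumours. They were chosen by name: Tnf, the genes whose symbols start with Tnfsf, Tnfrsf or Tnfaip apart from a few not reported here, and Cd27, Cd40, Cd40lg, Cd70, Fasl and Lta. This gave 29 of the 750 endogenous genes on the table, made up of 14 ligands, 14 receptors and Tnfaip3.

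TNF superfamily ligands are mostly trimeric proteins on the surface of immune cells, or shed from it, and they act by clustering their receptors. Receptors with a death domain, such as Tnfrsf1a and Tnfrsf10b, can start caspase activation, and the other signalling receptors recruit TRAF adaptors and switch on NF-kB and MAP kinases. Tnfaip3, also called A20, is a ubiquitin-editing enzyme that NF-kB induces and that shuts the same pathway off. In tumours, Tnf is known chiefly as a product of activated myeloid cells, while receptors such as Cd27, Tnfrsf4 (OX40) and Tnfrsf9 (CD137) are costimulatory receptors of activated T cells.

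All samples were syngeneic mammary tumours grown from NT2.5 cells, a line derived from a spontaneous mammary tumour, in the fat pad of female neu-N mice of 7 to 8 weeks. These FVB mice carry the rat neu gene under a mammary tumour virus promoter, which makes them tolerant to the tumour antigen. Dosing started 3 days after implantation and ran for 3 weeks. Entinostat (ENT), which inhibits class I histone deacetylases, was given daily by gavage at 5 mg/kg. Antibodies to PD-1, CTLA-4 or HER2 were given at 100 µg per mouse, the first pair 2 times a week and anti-HER2 1 time. Vehicle mice (n = 4) received isotype antibodies and methylcellulose. Arms of 4 samples received ENT alone, ENT with anti-PD-1 (ENT+PD1), ENT with anti-CTLA-4 (ENT+CTLA4) or ENT with both (ENT+PD1+CTLA4), and 2 samples received ENT with anti-CTLA-4 and anti-HER2 (ENT+CTLA4+HER2). A further 2 samples, called the repeat-titled pair here, carry the titles of ENT+PD1 samples 1 and 2 a second time, and whether they are the same RNA or other tumours is not settled by the labels. Every antibody arm also received entinostat, so no antibody was measured without it. Since the protocol says that anti-HER2 was both given and withheld in this model, only the sample titles were used to assign arms. The labels give whole tumours as the source but end the extraction text with isolation of immune cells. Each p-value of an arm comparison sets a difference against the spread between samples within arms, pooled over the arms in the fit. In bulk RNA fewer cells of a type and less RNA per cell cannot be told apart.

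Each of 2 cartridges took 12 samples. Vehicle, ENT and ENT+PD1 shared the first, while the 3 arms with anti-CTLA-4 and the repeat-titled pair shared the second, so a comparison across cartridges cannot tell treatment from cartridge. Values were molecule counts scaled to a common housekeeping level, called normalized counts below, and totals recovered from the inferred factor of each sample ran from 226863 to 483418. The mean of the 8 negative control probes, scaled in the same way, was 9.02 on the first cartridge and 5.32 on the second. A sample's background was set at its negative control mean plus 2 SD, which lay between 8.54 and 25.3. Epithelial markers were strong in every sample (Epcam 3778 to 6927, Cdh1 980 to 1865), and the pan-leukocyte marker Ptprc ran from 98.3 to 556. Summed T cell markers (Cd3d, Cd3e, Cd3g, Cd5, Cd2, Cd6) stood apart in ENT+PD1 samples 5 and 6 (295 and 367), ENT+CTLA4 sample 6 (512), ENT+PD1+CTLA4 sample 1 (937) and ENT+CTLA4+HER2 sample 2 (262). The other samples lay between 43.7 and 122. Of these T cell markers, Cd2 had the lowest median and exceeded background in 2 samples only.

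The upstream regions of 3 genes are shown because the levels of Tnf and Tnfaip3 are set against each other after the comparisons, and because Tnfrsf9 and Tnfaip3 carry matches to the NF-kB consensus. They cover the 250 bases before the transcription start, read 5′ to 3′ on the gene's strand, from RefSeq on GRCm38.p6. Capitals mark matches to the kappa-B consensus, searched on both strands. The Tnfaip3 region shown lies at chr10:19015411-19015660 on the minus strand, with matches that start at −125 and −12 from the start site. The Tnfrsf9 region shown lies at chr4:150927749-150927998 on the plus strand, with overlapping matches at −43 and −42. RefSeq gives each of these genes a second start, and its window held 0 matches. The Tnf region at chr17:35202008-35202257 on the minus strand holds no match, which says nothing of sites farther away.
Tnfaip3: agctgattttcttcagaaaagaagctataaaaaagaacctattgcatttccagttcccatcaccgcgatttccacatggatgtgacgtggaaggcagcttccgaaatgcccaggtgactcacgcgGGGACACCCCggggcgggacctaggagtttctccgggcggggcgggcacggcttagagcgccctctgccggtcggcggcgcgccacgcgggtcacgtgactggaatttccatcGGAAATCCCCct
Tnfrsf9: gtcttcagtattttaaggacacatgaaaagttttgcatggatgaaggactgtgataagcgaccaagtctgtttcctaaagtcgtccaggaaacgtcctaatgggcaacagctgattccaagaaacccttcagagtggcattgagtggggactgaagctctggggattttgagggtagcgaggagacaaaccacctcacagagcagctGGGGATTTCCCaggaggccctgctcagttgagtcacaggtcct
Tnf: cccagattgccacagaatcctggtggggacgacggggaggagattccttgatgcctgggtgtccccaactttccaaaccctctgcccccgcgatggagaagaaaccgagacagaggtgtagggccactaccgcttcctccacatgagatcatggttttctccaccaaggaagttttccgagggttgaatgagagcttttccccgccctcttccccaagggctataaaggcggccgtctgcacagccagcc
RefSeq windows were found for 22 of the 29 genes (25 windows of 250 bases before and 50 after a start). The consensus was present in windows of 3 members, Tnfaip3, Tnfrsf9 and Tnfrsf8, or 12% of the members' windows, and in 8.46% of all 32851 windows. A match describes the letters and is not evidence of binding.

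Of the 29 genes, 12 exceeded background in all 24 samples and 11 did so in 6 or fewer. The 6 with the highest medians were Tnfrsf12a, Tnfaip3, Tnfrsf1a, Tnfrsf1b, Tnfrsf10b and Tnf. Tnfrsf12a (Fn14), the receptor for Tnfsf12, had a lowest, median and highest normalized count of 1050, 1523 and 1760. Tnfaip3 ran from 428 through 764 to 1593. Tnfrsf1a, the broadly expressed TNF receptor with a death domain, stayed within 562, 645 and 772. Its fellow receptor Tnfrsf1b, which lacks a death domain and is best known on leukocytes, had 152, 192 and 284. Tnfrsf10b, the mouse receptor for Tnfsf10 (TRAIL), had 115, 156 and 235. Tnf itself had 56.4, 104 and 216. Capture probes differ in efficiency, so values of different genes give no order of transcript number.

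Among the ligands, Tnfsf12 (TWEAK) had a median of 46.6 (29.1 to 77.2) and Tnfsf10 of 45.6 (26.0 to 80.2), both above background in all 24 samples. Tnfsf14 (LIGHT), which binds Tnfrsf14 and Ltbr, had a median of 19.1 and exceeded background in 18 samples. Cd70, the ligand of Cd27, had 18.9 and exceeded it in 22 samples. Cd40lg, a ligand on activated helper T cells, had 17.2 and exceeded it in 19. Tnfsf11 (RANKL) had a median of 11.9 and exceeded background in 9 samples, with a highest value of 91.9. The remaining ligands were at or near background in most samples. Tnfsf13b (BAFF, median 8.59) exceeded it in 7 samples, Tnfsf13 (APRIL, 10.3) in 4, Tnfsf15 (7.37) and Tnfsf8 (7.27) in 2 each and Fasl (3.73) in 1. Lta (5.78) and Tnfsf4 (4.77) exceeded it in 0 samples. Lta is the neighbour of Tnf on chromosome 17, and its median lay within the range of the scaled negative control means (3.59 to 12.7).

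Among the receptors, Cd40, which licenses antigen-presenting cells, had a median of 36.4 (21.2 to 117). Tnfrsf11a (RANK) had 50.9 (34.6 to 98.1) and Tnfrsf14 (HVEM) 29.3 (18.5 to 68.1). Tnfrsf11b, the secreted decoy osteoprotegerin, had 25.1 (11.5 to 49.4). These 4 exceeded background in every sample. The costimulatory receptors of lymphocytes were weaker: Tnfrsf4 (median 9.89) exceeded background in 8 samples, Cd27 (4.41) in 3, Tnfrsf9 (6.96) in 2 and Tnfrsf8 (CD30, 6.04) in 1. The B cell receptors for Tnfsf13b and Tnfsf13 were as weak, with Tnfrsf13c (5.69) above background in 3 samples and Tnfrsf17 (4.78) in 1.

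**Figure D1:**
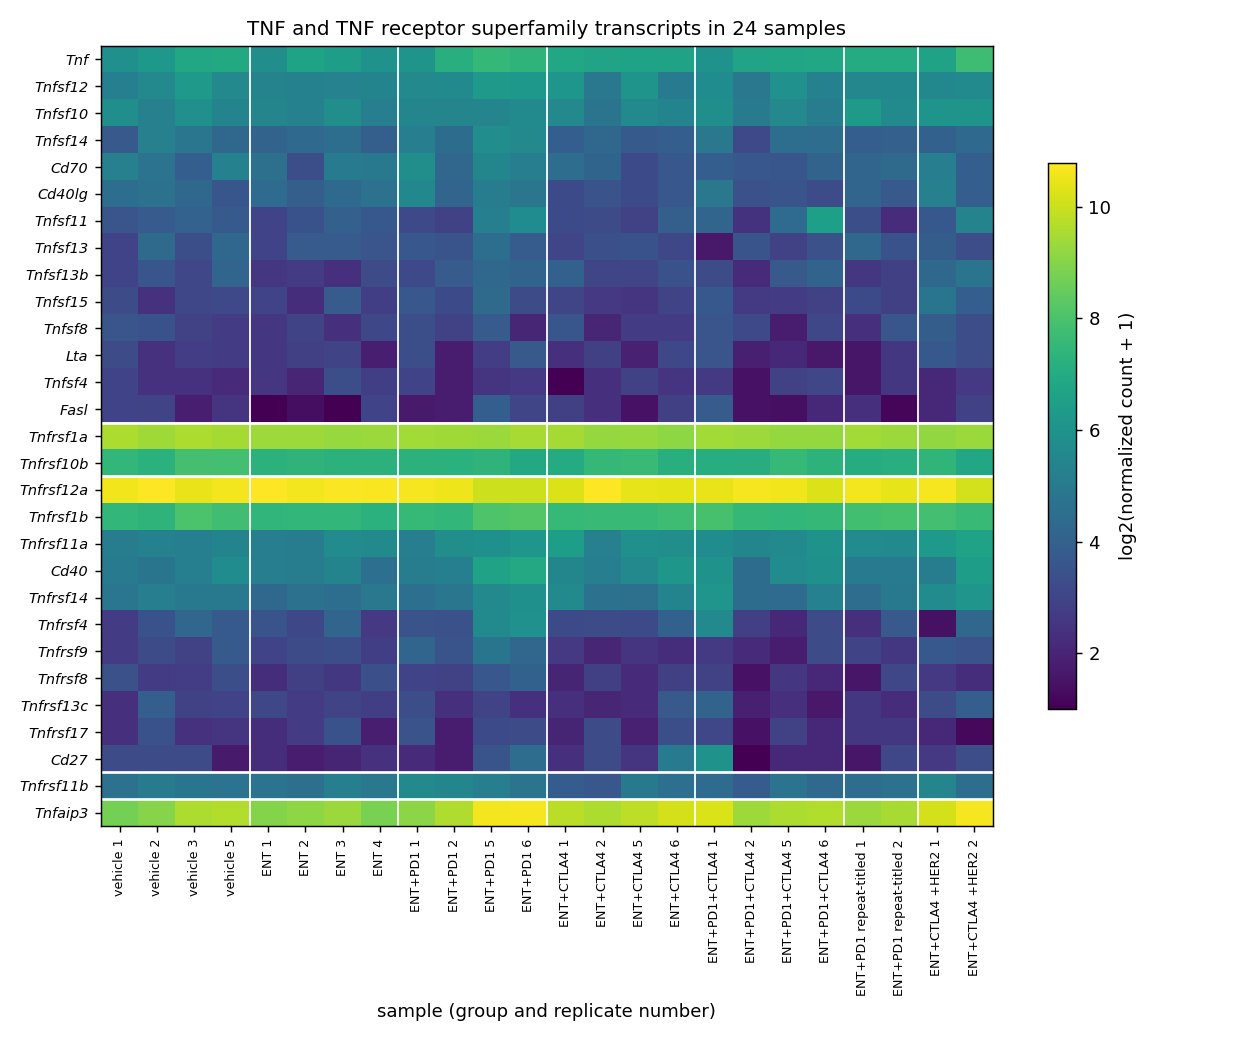
Colour gives log2(normalized count + 1) of each of the 29 genes (rows, grouped into ligands, death domain receptors, other receptors, the decoy and Tnfaip3) in each of 24 samples (columns, by arm). Tnfrsf12a, Tnfaip3, Tnfrsf1a, Tnfrsf1b, Tnfrsf10b and Tnf form the bright rows, and ENT+PD1 samples 5 and 6 and ENT+PD1+CTLA4 sample 1 stand out in Tnfrsf4.

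Tests across arms covered the genes with a normalized count of at least 20 in at least 4 samples, which left 621 of 770 genes and 16 of the 29: 7 ligands, 8 receptors and Tnfaip3. The other 13 were Cd27, Fasl, Lta, Tnfrsf13c, Tnfrsf17, Tnfrsf4, Tnfrsf8, Tnfrsf9, Tnfsf13, Tnfsf13b, Tnfsf15, Tnfsf4 and Tnfsf8. Limma's moderated test on log2(normalized count + 1), with Benjamini-Hochberg adjustment over the 621 genes, called 0 of the 16 at an adjusted p under 0.05 in each of 10 comparisons, in the interaction of the checkpoint antibodies and in the F test over 5 arms. At an unadjusted p under 0.05 the count of the 16 ranged from 0 to 5 per test. On recovered counts, edgeR called 0 members in all of these tests. DESeq2 called Tnfaip3 in ENT+CTLA4 against ENT and in the F test, beside 2.42% and 7.57% of all genes, respectively. The changes given below are differences on the log2(normalized count + 1) scale, which understates the change of weak genes.

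Entinostat alone was compared with vehicle within the first cartridge. Limma called 0 of the 16 genes (0% of all 621 genes were called), and 1 had an unadjusted p under 0.05, beside 4.67% of all genes. That gene was Tnfrsf1a, with 644, 646, 616 and 636 in ENT samples 1 to 4 and 772, 673, 757 and 711 in vehicle samples 1, 2, 3 and 5. Every ENT value lay below every vehicle value. Tnfrsf1a was the 1 member without overlap, beside 6.44% of all genes without overlap in either direction. The difference was −0.19 ± 0.08 log2 units (SE; limma adjusted p = 0.999). It was −0.08 after median rescaling and −0.10 after quantile normalization, where its unadjusted p was no longer under 0.05. Tnfrsf10b, the other death domain receptor, averaged 158 ± 5.00 in ENT and 198 ± 41.9 in vehicle (SD, n = 4; log2 difference −0.30 ± 0.17, limma adjusted p = 0.999). Of the 16, 12 had a negative difference and the median was −0.22, beside a median of −0.11 over all genes tested, of which 26.2% were positive. After median rescaling the members' median was −0.10 and that of all genes 0.00.

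Adding anti-PD-1 to entinostat was compared with ENT, again within the first cartridge and again with 0 of 16 called (0.322% of all genes were called). An unadjusted p under 0.05 was reached by 5 of the 16 and by 19.3% of all genes. Tnfaip3 had the smallest p: 540, 781, 1542 and 1589 in ENT+PD1 samples 1, 2, 5 and 6, and 498, 558, 626 and 449 in ENT. Samples 5 and 6 were far above the ENT values, sample 2 was above them and sample 1 lay among them. The means were 1113 ± 532 and 533 ± 76.5 (SD, n = 4), a log2 difference of 0.93 ± 0.30 (SE; limma adjusted p = 0.205). Tnfsf14 followed, with 35.6, 21.2, 53.8 and 47.7 in ENT+PD1 and 16.5, 19.4, 22.2 and 14.5 in ENT. Only sample 2 lay within the ENT range, and the difference was 1.02 ± 0.37 log2 units (limma adjusted p = 0.215). Without ENT+PD1 sample 1, limma called Tnf and Tnfaip3 (1.23 log2 units for Tnfaip3, limma adjusted p = 0.0305) and 4.19% of all genes. Without ENT+PD1 samples 5 and 6, the differences were 0.30 for Tnfaip3 and 0.59 for Tnfsf14 (limma adjusted p = 1 for both).

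Tnf, the ligand that gives the family its name, was 66.6, 142, 181 and 164 in ENT+PD1 and 56.4, 101, 85.7 and 63.9 in ENT. Its difference was 0.78 ± 0.32 log2 units (limma adjusted p = 0.231). Tnfrsf1b averaged 231 ± 55.4 and 169 ± 11.9, with the 2 high values in samples 5 and 6 (273 and 284). Cd40 was 33.3 and 36.7 in samples 1 and 2 and 98.3 and 117 in samples 5 and 6, beside 23.0 to 41.4 in ENT. Tnfrsf12a went the other way, with 1620 and 1483 in samples 1 and 2 and 1050 and 1056 in samples 5 and 6, beside 1559 to 1760 in ENT. Its difference was −0.38 ± 0.15 log2 units (limma adjusted p = 0.231). Tnfsf12 was the 1 member without overlap (48.3 to 74.9 in ENT+PD1, 38.7 to 41.8 in ENT), while 7.09% of all genes did not overlap.

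Of the 16 genes, 14 were higher in ENT+PD1 than in ENT, with a median difference of 0.58 beside 0.34 over all genes, of which 81.3% were higher. After median rescaling 12 were higher with a median of 0.27, and after quantile normalization 10 with a median of 0.12. Without samples 5 and 6 the median was 0.12, beside 0.06 over all genes. Samples 5 and 6 also had the highest summed macrophage and monocyte markers of the series, all 6 of which were measured (4727 and 6162, against 2196 and 2362 in samples 1 and 2 and 2392 to 2618 in ENT), and the lowest epithelial sums (6925 and 5921, against 8812 to 9353). Among the NK cell markers, Klrk1, a receptor of NK and activated T cells, differed by 1.58 ± 0.33 log2 units between ENT+PD1 and ENT (limma adjusted p = 0.04). It was not called after median rescaling (limma adjusted p = 0.0959), with edgeR (adjusted p = 0.102) or without ENT+PD1 samples 5 and 6 (limma adjusted p = 1). The part of cell makeup in the differences was not tested.

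**Figure D2:**
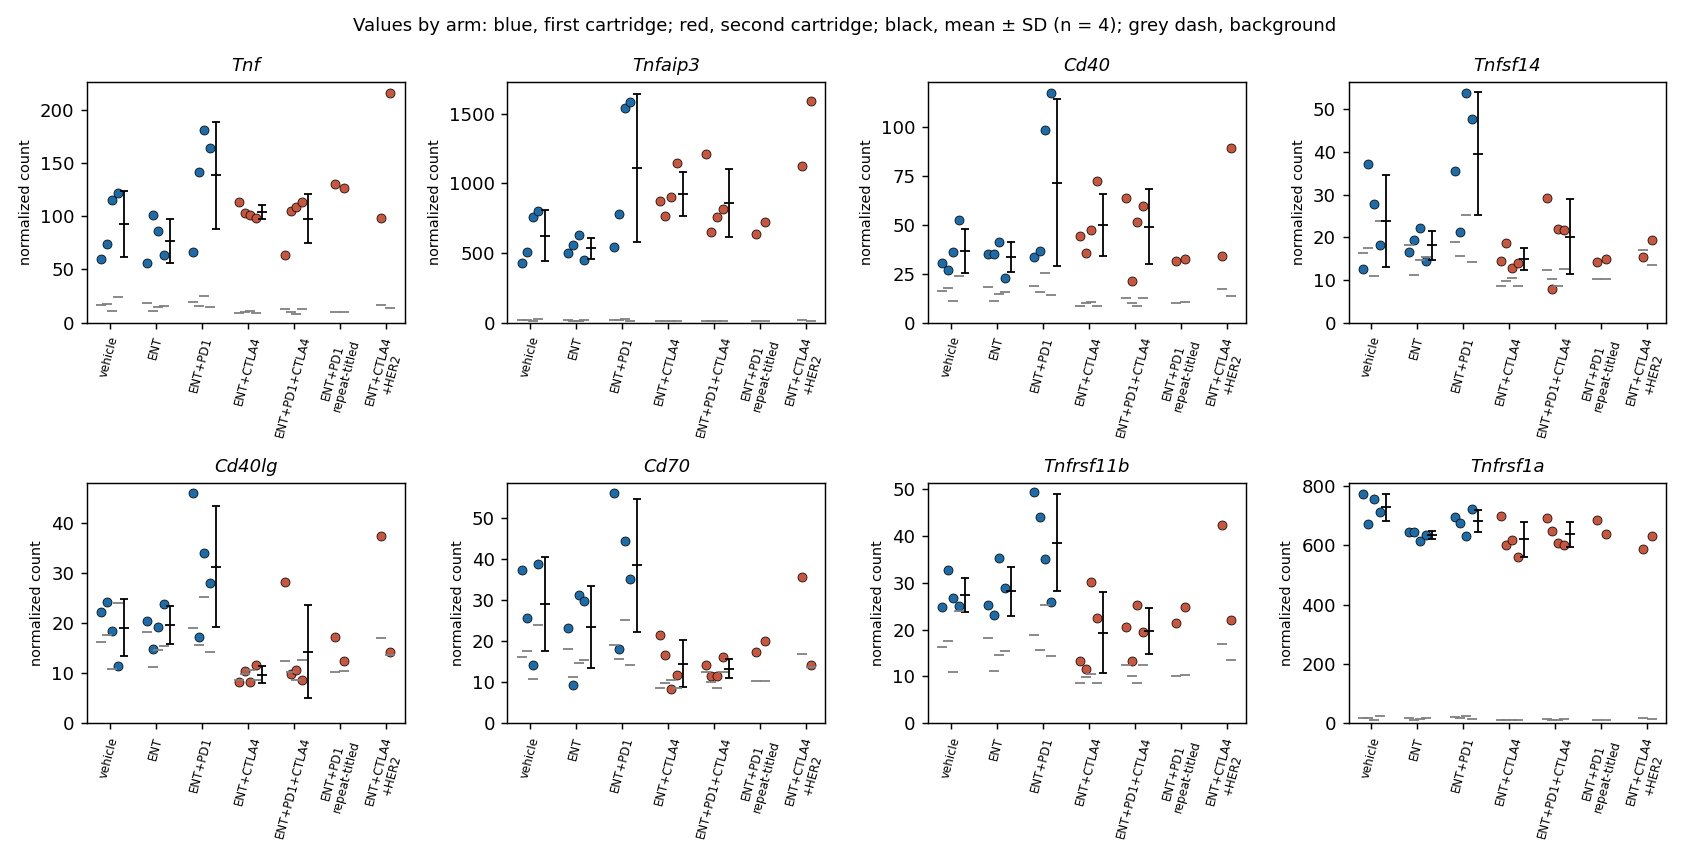
Normalized counts of 8 genes (y axis, linear scale) in each arm (x axis), with each sample as a point, the mean and SD of arms of 4 in black and each sample's background as a grey dash. Tnfaip3 and Cd40 in ENT+PD1 split into 2 high and 2 low samples, whereas Tnfrsf1a stays between 562 and 772 throughout.

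ENT+PD1 was also compared with vehicle, where limma called 0 of 16 (0% of all genes) and 3 had an unadjusted p under 0.05, beside 9.66% of all genes. Tnfaip3 averaged 625 ± 185 in vehicle, and the difference from ENT+PD1 was 0.74 ± 0.30 log2 units (limma adjusted p = 0.470), and 0.11 without ENT+PD1 samples 5 and 6. Tnfrsf10b averaged 148 ± 18.4 in ENT+PD1 and 198 ± 41.9 in vehicle, a difference of −0.40 ± 0.17 (limma adjusted p = 0.470). No member separated the groups, as 2.58% of all genes did. The members' median difference was 0.41, and −0.01 without ENT+PD1 samples 5 and 6. This comparison and the one before it share the ENT+PD1 samples.

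ENT+CTLA4 and ENT+PD1+CTLA4 ran on the second cartridge, so their differences from vehicle and ENT cannot be told apart from the cartridge. Against vehicle, limma called 0 of 16 in either arm (1.45% and 2.09% of all genes were called, respectively). An unadjusted p under 0.05 was reached by 4 of 16 and 16.6% of all genes in ENT+CTLA4, and by 2 of 16 and 14.2% in ENT+PD1+CTLA4. Tnfrsf1a had the smallest p in both, with 699, 601, 619 and 562 in ENT+CTLA4 samples 1, 2, 5 and 6 and 693, 647, 609 and 601 in ENT+PD1+CTLA4 samples 1, 2, 5 and 6. Each arm overlapped with vehicle in its highest value, and the differences were −0.23 ± 0.08 and −0.19 ± 0.08 log2 units (limma adjusted p = 0.145 and 0.285). Tnfrsf11a averaged 59.9 ± 20 in ENT+CTLA4 and 37.6 ± 2.85 in vehicle (0.60 ± 0.23 log2 units, limma adjusted p = 0.194). In ENT+PD1+CTLA4 it was 44.1 to 61.6, above every vehicle value (34.6 to 41.1), the 1 member without overlap there beside 8.53% of all genes. In ENT+CTLA4 no member separated from vehicle, beside 12.7% of all genes. Cd70 averaged 13.3 ± 2.32 in ENT+PD1+CTLA4 and 29.0 ± 11.5 in vehicle, a difference of −0.99 ± 0.43 (limma adjusted p = 0.298).

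Against ENT alone, Tnfaip3 had the smallest p in both CTLA4 arms. It was 876, 767, 901 and 1144 in ENT+CTLA4 and 1209, 651, 761 and 813 in ENT+PD1+CTLA4. Every one of these values exceeded the highest ENT value of 626. The differences were 0.79 ± 0.30 and 0.66 ± 0.30 log2 units (limma adjusted p = 0.239 and 0.424, with 0% of all genes called in either). An unadjusted p under 0.05 was reached by 2 of 16 and 15.1% of all genes in ENT+CTLA4, and by 1 of 16 and 11.3% in ENT+PD1+CTLA4. With only the ENT and ENT+CTLA4 samples in the fit, the limma adjusted p of Tnfaip3 was 0.0139, and DESeq2 gave 0.0332. These fits called 1 of the 16 genes each, beside 7.41% and 2.42% of all genes. Cd40lg went the other way in ENT+CTLA4, with 8.21, 10.4, 8.21 and 11.7 beside 20.4, 14.7, 19.2 and 23.9 in ENT. The groups did not overlap and the difference was −0.95 ± 0.37 (limma adjusted p = 0.247). With the repeat-titled pair used to fit a cartridge term, that difference was 0.01, and Cd40lg exceeded the sample's background in samples 2 and 6 of ENT+CTLA4 only. Together with Tnfrsf1b, 3 members did not overlap between ENT+CTLA4 and ENT, beside 18.4% of all genes. Tnfaip3 was the 1 such member in ENT+PD1+CTLA4, beside 9.82%. Tnfrsf11b averaged 19.6 ± 4.92 in ENT+PD1+CTLA4 and 28.2 ± 5.31 in ENT (−0.52 ± 0.30, limma adjusted p = 0.493), and 0.16 with the cartridge term.

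The smallest adjusted p-values of any member came from ENT+PD1+CTLA4 against ENT+PD1, which also lay on different cartridges. Limma called 3.22% of all genes and 0 of the 16, with 4 at an unadjusted p under 0.05 beside 17.7% of all genes. Cd70 was 14.1, 11.5, 11.4 and 16.2 in ENT+PD1+CTLA4 and 56.3, 18.0, 44.5 and 35.3 in ENT+PD1. Tnfrsf11b was 20.6, 13.2, 25.2 and 19.5 against 49.4, 44.1, 35.1 and 25.9. Neither gene overlapped between the arms, as for 8.21% of all genes. The differences were −1.37 ± 0.43 and −0.94 ± 0.30 log2 units, both with a limma adjusted p of 0.0761. Cd40lg (−1.16 ± 0.37, limma adjusted p = 0.0827) and Tnfsf14 (−0.99 ± 0.37, limma adjusted p = 0.135) were next. In ENT+PD1+CTLA4 samples 2 and 6, Cd40lg (9.70 and 8.65) lay below the backgrounds of 10.1 and 12.5. Without ENT+PD1 sample 2, the limma test called Cd70, Cd40lg and Tnfsf14, and without ENT+PD1+CTLA4 sample 1 it called Cd40lg. In those fits 11.1% and 6.6% of all genes were called.

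The repeat-titled pair, which carries the ENT+PD1 label on the second cartridge, had 17.3 and 19.9 for Cd70, 21.3 and 24.9 for Tnfrsf11b and 17.3 and 12.5 for Cd40lg. The ENT+PD1 samples of the same titles on the first cartridge had 56.3 and 18.0, 49.4 and 44.1, and 46.0 and 17.2. A cartridge term was fitted from the repeat-titled pair and all ENT+PD1 samples of the first cartridge, not the same-titled ones alone. With it, the difference between ENT+PD1+CTLA4 and ENT+PD1 was −0.47 for Cd70 and −0.26 for Tnfrsf11b (limma adjusted p = 0.81 for both). That fit sets ENT+PD1+CTLA4 against the repeat-titled pair alone. It cannot tell the cartridge from other differences between the pair and the first-cartridge ENT+PD1 samples. For Tnfrsf11b both repeat-titled values lay within the ENT+PD1+CTLA4 range and below every ENT+PD1 value. Over the 16 genes, 13 were lower in ENT+PD1+CTLA4 and the median difference was −0.25, the same as the −0.25 over all genes. After median rescaling 9 of the 16 were higher and 7 lower.

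Within the second cartridge, ENT+PD1+CTLA4 was compared with ENT+CTLA4. Limma called 0 of 16 (0% of all genes), 0 had an unadjusted p under 0.05 (1.61% of all genes), and none was free of overlap, beside 1.45% of all genes. Tnfsf11, the cytokine that drives osteoclast formation, was 17.3, 4.41, 20.3 and 91.9 with anti-PD-1 and 8.21, 8.33, 6.39 and 14.8 without it. Those of ENT+CTLA4 samples 1, 2 and 5 and of ENT+PD1+CTLA4 sample 2 lay below the sample's background. The value in ENT+PD1+CTLA4 sample 6 was the highest of the series, and the difference was 1.07 ± 0.70 log2 units (limma adjusted p = 1). Cd40lg differed by 0.38 ± 0.37 (limma adjusted p = 1). The median over the 16 was −0.03, beside −0.01 over all genes.

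The interaction asks whether the anti-PD-1 difference depends on anti-CTLA-4, and an additive cartridge shift cancels in it. Limma called 0 of 16 (0% of all genes), and Tnfaip3 was the 1 member with an unadjusted p under 0.05, beside 6.76% of all genes. Anti-PD-1 went with 0.93 ± 0.30 for Tnfaip3 on ENT and with −0.13 ± 0.30 on ENT+CTLA4, an interaction of −1.06 ± 0.42 log2 units (limma adjusted p = 0.595). The Tnfaip3 difference on ENT was smaller without ENT+PD1 samples 5 and 6, as given above. For Tnf the values were 0.78 ± 0.32 and −0.12 ± 0.32, an interaction of −0.91 ± 0.45 (limma adjusted p = 0.595). The dependence on anti-CTLA-4 thus did not pass the test for either gene.

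**Figure D3:**
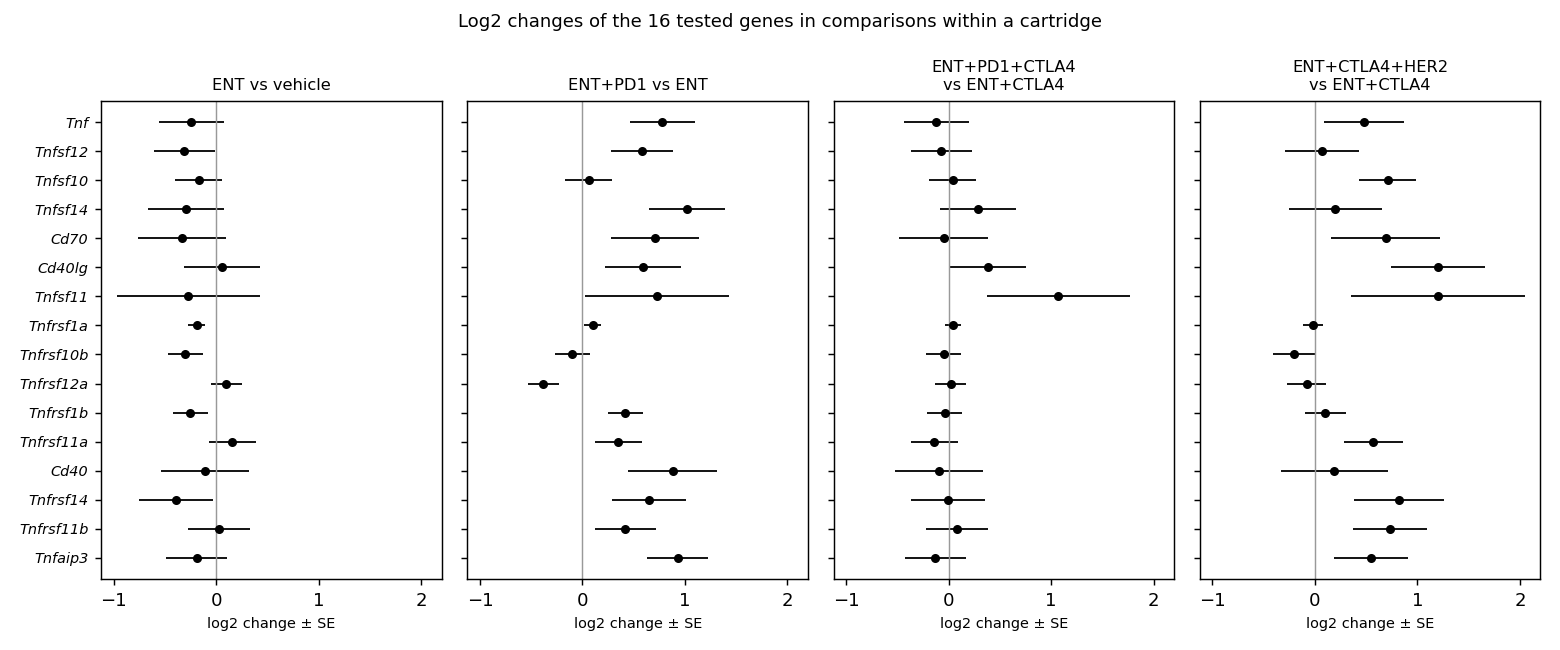
Log2 differences (x axis, with SE from limma) of the 16 tested genes (y axis) in 4 of the 5 comparisons that lie within a cartridge (ENT+PD1 against vehicle is not drawn). In ENT+PD1 against ENT, 14 points lie right of 0, and in ENT+PD1+CTLA4 against ENT+CTLA4 the points scatter around 0 with 7 right of it.

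Anti-HER2 on top of ENT+CTLA4 was measured in 2 samples, on the second cartridge. Limma called 0 of the 16 and 2.25% of all genes, and 2 of the 16 had an unadjusted p under 0.05, beside 18.8% of all genes. Cd40lg was 37.4 and 14.2, above the 8.21 to 11.7 of ENT+CTLA4, a difference of 1.2 ± 0.46 log2 units (limma adjusted p = 0.161). In ENT+CTLA4 samples 1 and 5 its 8.21 lay below the backgrounds of 8.58 and 10.5. The 14.2 of ENT+CTLA4+HER2 sample 2 lay just above its background of 13.6. Tnfsf10, a ligand that can trigger apoptosis in tumour cells, was 66.3 and 65.9, above the 26.0 to 49.3 of ENT+CTLA4 (0.71 ± 0.28, limma adjusted p = 0.174). With Tnfrsf14 (51.0 and 67.1 against 23.7 to 49.3), 3 members were free of overlap, beside 28.8% of all genes. Sample 2 held the highest Tnf value (216), the highest Tnfaip3 value (1593) and the highest Tnfrsf11a value (98.1) of all 24 samples, whereas sample 1 had 98.6, 1123 and 74.8. Of the 16, 13 were higher and the median was 0.52, beside 0.17 over all genes. Without sample 2 the median was 0.25, beside 0.13. After median rescaling the median was 0.36 with 11 higher, and after quantile normalization 0.18 with 10 higher. Sample 1 also had a summed neutrophil marker level of 13089 (5 of 6 markers measured), most of it from S100a8 alone (11838). The ENT+CTLA4 samples had sums of 835 to 1746, and all 4 neutrophil markers tested were higher with anti-HER2. The part of neutrophils in the values of this arm was not tested.

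Across the 5 arms of 4, the F test called 3.22% of all genes and 0 of the 16, of which 5 had an unadjusted p under 0.05, beside 19.5% of all genes. Cd40lg (limma adjusted p = 0.0929) and Tnfrsf11b (limma adjusted p = 0.144) had the smallest values, and Cd40lg was called without ENT+PD1 sample 2 (limma adjusted p = 0.0349) or without ENT+PD1+CTLA4 sample 1 (limma adjusted p = 0.0261). Those fits called 9.18% and 6.44% of all genes. The mean of Cd40lg was 31.3 ± 12 in ENT+PD1, 19.5 ± 3.78 in ENT, 19.1 ± 5.63 in vehicle, 14.3 ± 9.27 in ENT+PD1+CTLA4 and 9.62 ± 1.71 in ENT+CTLA4 (SD, n = 4). That of Tnfrsf11b was 38.6 ± 10.3, 28.2 ± 5.31, 27.4 ± 3.69, 19.6 ± 4.92 and 19.4 ± 8.64 in the same arms. In both genes the arms of the first cartridge came before those of the second. Cd40lg lay below background in ENT+CTLA4 samples 1 and 5 and in ENT+PD1+CTLA4 samples 2 and 6.

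Of the 13 genes below the filter, Cd27 and Tnfrsf4 had the largest SD of log2 values over the 22 samples outside the repeat-titled pair (1.18 and 1.1). Tnfrsf4 was 50.3 and 60.2 in ENT+PD1 samples 5 and 6 and 49.8 in ENT+PD1+CTLA4 sample 1, and between 1.70 and 18.1 in the other 21 samples. Cd27 was 61.6 in ENT+PD1+CTLA4 sample 1, 32.6 in ENT+CTLA4 sample 6 and 21.8 in ENT+PD1 sample 6, and at most 10.5 elsewhere, below background. All of these samples are among the 5 with high T cell sums given above, and the part of T cell number in the values was not tested. In a fit without the filter, Tnfrsf4 differed between ENT+PD1 and ENT by 1.27 ± 0.74 log2 units (limma adjusted p = 0.319). Tnfrsf9 was called in 2 tests of that fit, beside 2.21% and 3.12% of all 770 genes: ENT+PD1+CTLA4 against ENT+PD1 (−1.71 ± 0.32, limma adjusted p = 0.00929) and the F test (limma adjusted p = 0.0136). It exceeded background in ENT+PD1 samples 5 and 6 alone (26.9 and 17.6) and was 17.2 and 10.6 in samples 1 and 2. It lay between 2.44 and 8.65 in ENT+PD1+CTLA4, all below background, so the size of this difference is that of weak values near the negative controls, which were themselves lower on the second cartridge.

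**Figure D4:**
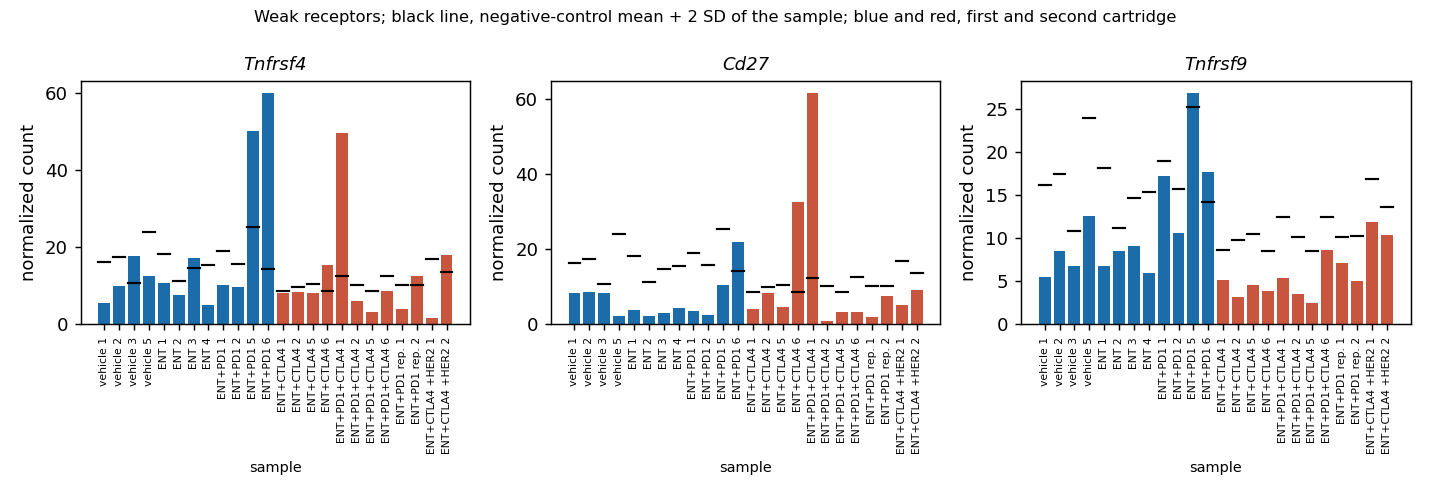
Bars give the normalized count of Tnfrsf4, Cd27 and Tnfrsf9 in each of 24 samples, with the sample's background as a black line and the cartridges in blue and red. Tnfrsf4 is high in 3 samples, Cd27 exceeds its line in 3 and Tnfrsf9 in 2.

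Ligands and their receptors were set against each other over the 22 samples with distinct titles. Of 17 pairs on the table, 9 had both genes tested, and 0 passed an adjusted p of 0.05 (permutation test, 100000 resamples, two-sided). Here and below, permutation shuffled samples across arms and cartridges, so differences between arms or cartridges enter these p-values. Tnfsf12 and its receptor Tnfrsf12a ran in opposite directions, with r = −0.56 (permutation p = 0.00753, adjusted 0.0678) and rho = −0.52 (permutation p = 0.0137, adjusted 0.099). Without the 2 samples farthest from the median of Tnfsf12, r was −0.59, and it was −0.79 and −0.41 within the first and second cartridges. Tnf and Tnfrsf1b had r = 0.49 (permutation p = 0.0198, adjusted 0.089) and rho = 0.49 (permutation p = 0.022, adjusted 0.099), but 0.78 within the first cartridge and −0.46 within the second. Without the 2 samples farthest from the median of Tnf, r was 0.54. Tnfsf11 and Tnfrsf11a had r = 0.44 (permutation p = 0.0388, adjusted 0.116) and rho = 0.39 (permutation p = 0.0767, adjusted 0.23), with r at 0.38 without 2 samples and 0.66 and 0.35 within cartridges. For Tnfsf14 and Tnfrsf14, r was 0.35 (permutation p = 0.11, adjusted 0.247) and rho 0.26 (permutation p = 0.246, adjusted 0.454). It was 0.15 without ENT+PD1 samples 5 and 6 and 0.69 and 0.44 within cartridges. In the other 5 pairs, Tnf with Tnfrsf1a, Cd40lg with Cd40, Tnfsf10 with Tnfrsf10b, Tnfsf11 with Tnfrsf11b and Tnfsf14 with Ltbr, r lay between −0.13 and 0.01 and no permutation p was below 0.252.

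The relation between Tnf and Tnfaip3, the inhibitor whose upstream sequence is printed above, was chosen after the values were seen. Over 22 samples r was 0.74 (permutation p = 9e-05) and rho 0.62 (permutation p = 0.00256), with r = 0.66 without the 2 samples farthest from the median of Tnf. Within cartridges it differed: r was 0.92 over the 12 samples of the first and 0.29 over the 10 of the second. ENT+CTLA4+HER2 sample 2 and ENT+PD1 samples 5 and 6 were the 3 samples highest in Tnfaip3. Without these 3, r was 0.51 over 19 samples, 0.92 over the 10 left on the first cartridge and −0.64 over the 9 left on the second. ENT+PD1+CTLA4 sample 1 combined the lowest Tnf of the second cartridge (63.8) with a Tnfaip3 of 1209. The other samples left on the second cartridge had Tnf values between 98.6 and 114 only. The positive relation therefore held within the first cartridge. It was not seen within the second without ENT+CTLA4+HER2 sample 2, where this narrow range of Tnf leaves little room to show a relation.

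**Figure D5:**
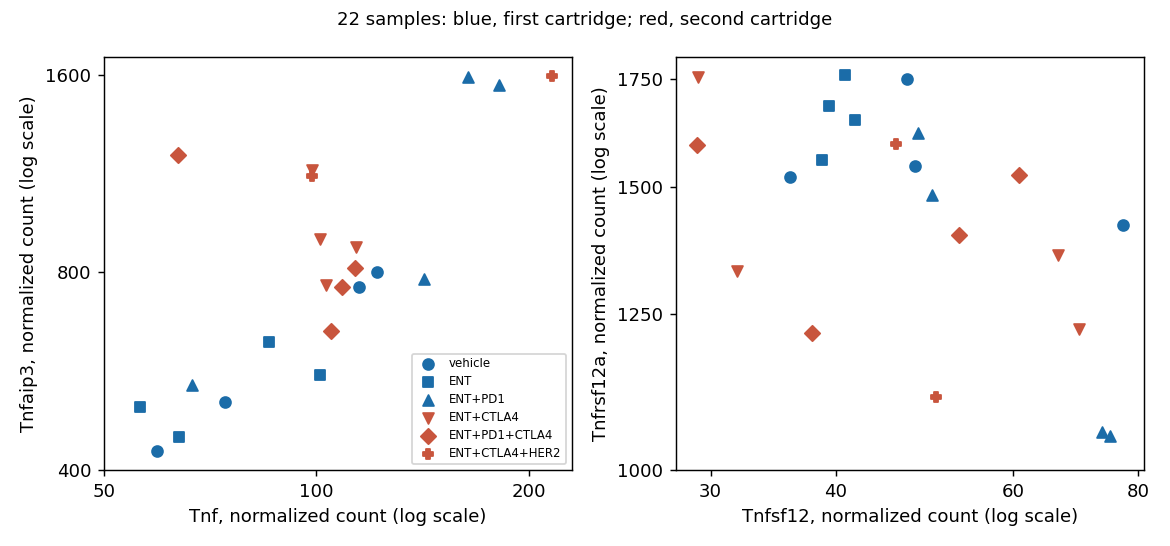
Tnfaip3 against Tnf (left) and Tnfrsf12a against Tnfsf12 (right) in 22 samples, as normalized counts on log axes, with arms by symbol and cartridges by colour. On the left, the blue points follow a rising line and the red points do not, apart from 1 sample at 216 and 1593.

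The 16 genes were also set against the mean log2 level of 6 macrophage and monocyte markers and of 4 epithelial markers over 22 samples, giving 32 relations, an analysis added after the values were seen. With an adjusted permutation p under 0.05 for both r and rho there were 6 relations with the macrophage markers (Cd40, Tnfaip3, Tnfrsf12a, Tnfrsf1b, Tnfsf11 and Tnfsf12) and 4 with the epithelial markers (Cd40, Tnfrsf14, Tnfsf11 and Tnfsf14). Tnfsf11 exceeded background in 9 samples only. Its r with the macrophage markers was 0.58, but 0.37 without 2 samples, and 0.87 and 0.37 within the first and second cartridges. With the epithelial markers its r was −0.74, and −0.62 without 2 samples. Cd40 was higher where the macrophage markers were higher, with r = 0.77 (permutation p = 4e-05, adjusted 0.000427) and rho = 0.69 (permutation p = 0.0006, adjusted 0.0192). It was 0.87 and 0.66 within the first and second cartridges and 0.61 without ENT+PD1 sample 6 and ENT+PD1+CTLA4 sample 2. Against the epithelial markers Cd40 had r = −0.81 (permutation p = 1e-05, the smallest these resamples can give, adjusted 0.00032) and rho = −0.53 (permutation p = 0.0114, adjusted 0.0406). That was −0.78 and −0.89 within cartridges and −0.67 without ENT+PD1 sample 6 and ENT+CTLA4+HER2 sample 2.

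Tnfaip3 followed the macrophage markers with r = 0.62 (permutation p = 0.00206, adjusted 0.00659) and rho = 0.56 (permutation p = 0.00782, adjusted 0.0394). It was 0.57 without 2 samples, 0.89 within the first cartridge and 0.36 within the second. Tnfrsf1b gave r = 0.68 (permutation p = 0.0005, adjusted 0.00247) and rho = 0.55 (permutation p = 0.00832, adjusted 0.0394), with 0.62 without 2 samples and 0.86 and 0.41 within cartridges. Tnfrsf12a took the opposite course, with r = −0.60 (permutation p = 0.00285, adjusted 0.00819) and rho = −0.57 (permutation p = 0.00665, adjusted 0.0394). It was −0.50 without 2 samples and −0.89 and −0.24 within cartridges. Tnfrsf14 was lower where the epithelial markers were higher, with r = −0.74 (permutation p = 4e-05, adjusted 0.000427) and rho = −0.57 (permutation p = 0.00642, adjusted 0.0394), −0.63 without 2 samples and −0.75 and −0.81 within cartridges. All values share 1 housekeeping scale per sample, and a larger share of one kind of RNA lowers the share of another.

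The genes through which the receptors signal showed 1 called change. Of 11 TRAF adaptors and death domain proteins, 11 NF-kB genes, 10 MAP kinase and AP-1 genes and 11 TNF-induced targets tested (12 on the table), limma called Nfkbia alone. The call came in ENT+PD1+CTLA4 against ENT+PD1, where 3.22% of all genes were called. Nfkbia, the inhibitor that holds NF-kB in the cytoplasm, averaged 705 ± 55.8 in ENT+PD1+CTLA4 and 1044 ± 124 in ENT+PD1 (SD, n = 4), so it fell by 0.56 ± 0.15 log2 units across cartridges (limma adjusted p = 0.0488). It averaged 673 ± 48.8 in the repeat-titled pair (n = 2), and the difference was 0.06 with the cartridge term (limma adjusted p = 0.904). It was −0.27 after median rescaling (limma adjusted p = 0.372) and −0.43 without ENT+PD1 samples 5 and 6 (limma adjusted p = 0.3), and neither edgeR nor DESeq2 called it. The TNF-induced targets, which include Icam1, Ccl2, Cxcl1 and Il6, had 0 called genes in every comparison, as did the 3 superfamily genes outside the naming rule, Fas, Ltb and Ltbr. In ENT+PD1 against ENT, 10 of the 11 targets were higher with a median difference of 0.41, beside 0.34 over all genes, and after median rescaling 7 were higher with a median of 0.09. Of the 11 NF-kB genes 10 were higher with a median of 0.34, and after median rescaling 7 with a median of 0.03. In ENT+PD1+CTLA4 against ENT+PD1, 0 of the 11 targets were higher and the median was −0.39, beside −0.25 over all genes. With the cartridge term the direction turned, with 11 of 11 higher and a median of 0.39. As for Nfkbia, that fit sets ENT+PD1+CTLA4 against the repeat-titled pair (n = 2) alone. It cannot tell the cartridge from other differences between the pair and the first-cartridge ENT+PD1 samples. After median rescaling 4 of the targets were higher with a median of −0.12, and without ENT+PD1 samples 5 and 6 there were 6 with a median of 0.05.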

How the data were processed

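RNA of 24 samples was hybridised to an nCounter immune panel of 770 genes with 8 negative and 6 positive control probes. The labels call the panel by 2 names. Each deposited value is a signal, a molecule count times a factor per sample that sets the geometric mean of the housekeeping genes to 347. This was found from the values: after division by the sample's smallest step, 100% of values above 1 were whole within 0.05, and 82 values were set at exactly 1. A second check of the file's steps bore out whole counts in 14 of the 24 samples only, so the recovered counts of the other 10, their totals and both count tests are less certain. Per the submitters' processing notes limma was used, with its version and role not given in the sources used here.

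Here limma 3.58.1 (R 4.3.3) was fitted to log2(value + 1) of 621 genes with at least 20 in at least 4 samples, over 22 samples in 6 arms, with Benjamini-Hochberg adjustment and a threshold of 0.05. The repeat-titled pair was left out. The test was also run on simulated data with the same spread setting for every gene, no cartridge difference and no outlying samples. That run does not show how the test performs where these are present. edgeR 4.0.16 and DESeq2 1.42.0 ran on the recovered counts as alternatives. Other alternatives were the scaling, pseudocount, filter, floor, cartridge and replicate blocks and left-out samples. Genes with full values were those called, the 2 with the smallest p per comparison and the 6 with the highest median, and other members described were chosen after their values were seen. Members, lists and tests were chosen with earlier results of these data known. A few superfamily genes of the panel are not reported here. Kappa-B matches were searched in RefSeq windows of 300 bases.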

Additional observations from a re-analysis of the deposited data

Results flagged for a closer look

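Among 80 combinations of a tested gene and an arm of 4 samples, 4 had 1 sample far from the other 3 by Dixon's criterion, which is as many as the 1 in 20 that chance gives (4). Of these, 3 concerned ENT+PD1+CTLA4 sample 1, the sample with the highest summed T cell markers (937). Its Cd40lg value was 28.1, where the other 3 samples had 8.65 to 10.6. Its Tnf value was 63.8, below the 105 to 114 of the others, although its Tnfaip3 value of 1209 was the highest of the arm. Its Tnfrsf1b value was 242, above the 175 to 183 of the others. The remaining one was Tnfsf10 in ENT+PD1 sample 6, at 48.8 beside 42.5 to 43.3, a gap that is small in size.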

How the results depend on the processing

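The count of members called by limma was 0 in each of 10 comparisons, the interaction and the F test, and 160 of 166 alternative counts (samples left out singly aside) kept it. ENT+CTLA4 against ENT gave 1 call, Tnfaip3, with the compared groups alone (adjusted p = 0.0139), with DESeq2 (0.0332) and without ENT+PD1 samples 5 and 6 and ENT+PD1+CTLA4 sample 1 (0.0383). This last set was chosen after seeing the data. These fits called 7.41%, 2.42% and 4.35% of all genes, respectively. ENT+PD1+CTLA4 against ENT+PD1 gave 1, Tnfrsf9, with no filter, beside 2.21% of all genes. The F test gave 1 with no filter (Tnfrsf9, beside 3.12%) and 1 with DESeq2 (Tnfaip3, beside 7.57%). Leaving out 1 sample at a time gave 0 to 2 calls in ENT+PD1 against ENT, 0 to 3 in ENT+PD1+CTLA4 against ENT+PD1 and 0 to 1 in the F test, and 0 in every other comparison. With the cartridge as a block, 2 of the named members' differences turned sign: Cd40lg in ENT+CTLA4 against ENT (0.01) and Tnfrsf11b in ENT+PD1+CTLA4 against ENT (0.16). The causes were not tested. Of 332 alternative values of the named differences, 327 kept their direction and side of the threshold. With the replicate block, 0 members were called in every comparison. Same-numbered samples of different arms did not deviate together as a rule. The median r was −0.033 over 40 pairs (−0.453 to 0.634), with 14 of them above 0.1. The numbers were therefore not used as pairs. The recovered counts behind edgeR and DESeq2 rest on each sample's inferred step, borne out by a second check in 14 of 24 samples. For 13 members values near the negative controls limit what can be seen, and no difference between them is shown to be absent.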
